A study of Drosophila melanogaster with 2 samples.

Results

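The genes described here are CG32767, ovo and CG15465, which lie side by side on the X chromosome of Drosophila melanogaster. They were chosen by symbol, as the gene of the protein studied and its neighbours to either side, and are 3 of 18164 annotated genes on the 6 chromosome arms (13945 of them protein-coding). Their sites are the peaks with a summit inside a gene's span or within 5 kb of it. Of 3533 peaks in the authors' conservative list, 4 met this rule. The samples were whole embryos collected from 0 to 24 hours, from a transgenic strain whose CG32767 protein is made as a fusion with eGFP, a green fluorescent tag. An anti-GFP antibody then pulled down the chromatin (ChIP-seq) in 2 biological replicates, which form the single group of the study. The labels name an insertion targeting CG32767, but not where the transgene sits, how much of the CG32767 gene it carries, or whether the native gene is intact. The control named in the labels as possible was not analysed here, and whole embryos mix all cell types, so a signal is an average over tissues and stages.

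CG32767 encodes a protein with zinc fingers of the C2H2 class, a fold that many fly transcription factors use to read DNA. The gene ovo, also called shavenbaby, encodes another C2H2 zinc finger transcription factor. Its somatic form, made from the upstream promoter, directs the formation of the cuticle projections of the larva, and its germline forms, made from internal promoters, are needed in the female germline. The long region upstream of ovo is known for its many embryonic enhancers. CG15465 encodes an uncharacterized protein, and in the annotation its span coincides with that of rugose (rg), a gene for a protein that anchors protein kinase A. A signal near their shared start cannot be assigned to CG15465 or to rg.

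In the dm6 assembly ovo spans X 5048273 to 5070929 on the forward strand and CG32767 spans X 5071027 to 5084768 on the reverse strand, with 97 bases between them. CG15465 spans X 5085759 to 5254864 on the forward strand and starts 990 bases from the distal start of CG32767, so these neighbours are transcribed away from each other. CG32767 has 6 annotated transcripts from 2 transcription start sites (TSSs), ovo 5 from 3, and CG15465 2 from 2. With 5 kb to either side, the windows were 23.7 kb for CG32767, 32.7 kb for ovo and 179.1 kb for CG15465. The window of CG32767 overlaps that of ovo and that of CG15465. The nearest genes beyond the locus were CG12680, 49884 bp to the left of ovo, and CG42749, 41201 bp to the right of CG15465.

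The sequences of 3 of the 4 conservative peaks follow, because the strongest lies in the gene of the precipitated protein itself and the others are the sites of its neighbours. They are RefSeq dm6 sequence on the forward strand. The whole strongest peak is shown, with a 9-base word and its reverse complement in capitals. For the peak upstream of ovo and the intronic peak of CG15465 and rg, 50 bases to either side of the summit are shown. There, capitals mark a run of A in the first, and an E-box (CANNTG) and a TATA-type match (TATAAA, on the reverse strand) in the second. The peak at the first exon of CG15465 and rg lies in an untranslated region and is described without its sequence.
Peak inside CG32767, chrX:5083622-5083893: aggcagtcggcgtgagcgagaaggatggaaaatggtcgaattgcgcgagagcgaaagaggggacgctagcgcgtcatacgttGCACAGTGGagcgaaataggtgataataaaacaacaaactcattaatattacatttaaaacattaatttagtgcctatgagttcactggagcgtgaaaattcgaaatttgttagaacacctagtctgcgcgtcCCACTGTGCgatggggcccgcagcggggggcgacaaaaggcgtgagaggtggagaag
Summit upstream of ovo, chrX:5046666-5046766: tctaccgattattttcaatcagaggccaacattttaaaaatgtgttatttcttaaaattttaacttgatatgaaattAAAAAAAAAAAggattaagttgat
Summit in the intron of CG15465 and rg, chrX:5094106-5094206: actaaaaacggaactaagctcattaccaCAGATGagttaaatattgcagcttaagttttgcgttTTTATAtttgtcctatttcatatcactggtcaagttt

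The highest signal of the locus lay in the gene of the tagged protein. The peak (X 5083622 to 5083893) had its summit at 5083774, in the intron between the start sites of CG32767, 749 bp upstream of the proximal TSS and 994 bp downstream of the distal TSS. Its signal, the authors' value in the units of their peak caller, was 601.5, which was 50th of the 3533 conservative peaks and 9th of the 604 on the X. The signal was 388.2 in replicate 1 and 219.1 in replicate 2, where the peak ranked 40th of 2887 and 81st of 2624 thresholded peaks. It was therefore in the upper ranks of either replicate, with summits 17 and 7 bp from the combined one. At 272 bp the peak was narrower than the list's median of 390 bp.

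**Figure D1:**
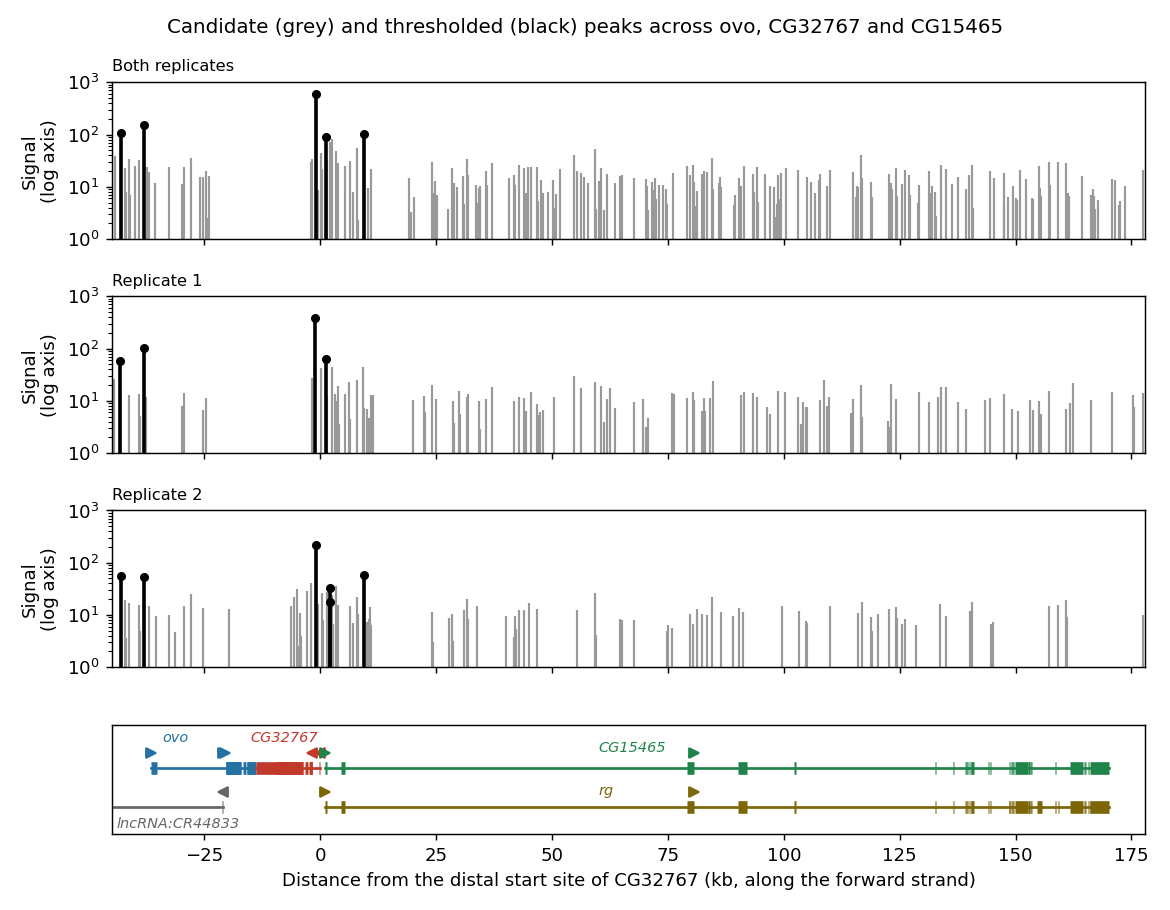
Peak signal (log axis) against distance from the distal start site of CG32767 in kb, in the lists of both replicates combined (the conservative list and the ranked list behind it), of replicate 1 and of replicate 2. Grey lines are candidates of the ranked list and black lines with points are thresholded peaks, over the exons and start sites of the genes; the 601.5 peak of CG32767 rises above all others, and black peaks are missing from all of CG15465 beyond its first 10 kb.

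The peak assigned to ovo lay outside the gene. It spanned X 5046521 to 5046910, with the summit 1557 bp upstream of the ovo TSS from which the transcripts ovo-RB and ovo-RE start, in an intron of lncRNA:CR44833, a long non-coding RNA gene that runs antisense to the 5' part of ovo. Its combined signal was 152.6, 950th in the conservative list and higher than 73.1% of it. The signal was 103.7 in replicate 1 and 52.9 in replicate 2, and the peak was thresholded in either. Inside the ovo span of 22.7 kb none of the 4 thresholded lists had a peak, and the strongest candidate of the combined ranked list was 35.2. The internal start sites of ovo, at 5063844 for ovo-RC and at 5064233 for ovo-RA and ovo-RD, had no candidate within 500 bp in any of the 4 ranked lists. At the upstream start site, 5048273, the combined ranked list had a candidate of 18.9, replicate 2 had a candidate of 15.04, and replicate 1 had none.

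A further conservative peak stood just outside the ovo window. Its summit, 6540 bp upstream of the ovo TSS and also within lncRNA:CR44833, had a combined signal of 106.1, with 56.7 in replicate 1 and 56.0 in replicate 2. These were the 2 conservative peaks in the 107.2 kb of lncRNA:CR44833. The next one to the left, of 297.0, was 398 bp from a TSS of Ptp4E, which encodes a receptor tyrosine phosphatase.

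Within CG15465 and rg, the thresholded peaks lay in the first 10 kb. The first-exon peak (X 5085844 to 5086233) had its summit 280 bp downstream of their TSS, in sequence annotated as 5' untranslated. Its combined signal was 89.3, 2242nd in the conservative list. The signal was 63.0 in replicate 1, where it was thresholded, and 28.1 in replicate 2, where the overlapping candidate had its summit 114 bp away and was not thresholded. The other peak (X 5093961 to 5094350) lay in an intron, 8397 bp downstream of the TSS, with a combined signal of 102.1, 1837th in the list. Here the order of the replicates was the opposite, with 43.9 in replicate 1 and 57.3 in replicate 2, and replicate 2 alone had it above threshold. The replicate 1 candidate missed narrowly, with a deposited score of 826 where the thresholded lists require at least 830. For the first-exon peak the replicate 2 candidate had a score of 58.

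Between these sites the lists held different summits. The authors' other list for both replicates, of 4636 peaks, held all 4 conservative peaks and added summits 548 bp (signal 31.8) and 1503 bp (signal 80.6) downstream of the CG15465 TSS. The list of replicate 2 held summits 1028 bp (33.1) and 1227 bp (17.7) downstream, which no other thresholded list had. All of these lie in an intron of CG15465 and rg. The summits added by the longer list were weaker than the 4 conservative peaks there, while in replicate 2 the summit of 33.1 was stronger than the first-exon candidate of 28.1. Beyond its first 10 kb, the remaining 159.1 kb of CG15465 had 0 peaks in each of the 4 thresholded lists. Over the whole X the conservative list had 0.257 peaks per 10 kb and the longer list 0.326. The lists of replicates 1 and 2 had 0.218 and 0.168. The 10 kb boundary was not among the planned measures and lies just past the intronic summit at 8397 bp. The 159.1 kb did hold candidates below the threshold, the strongest with a combined signal of 53.3. Their density was 10.4 per 10 kb among the combined candidates against 9.64 over the whole X, but lower than the X in the replicates, with 6.10 against 6.38 in replicate 1 and 3.90 against 6.003 in replicate 2. To the right of the intronic summit the next conservative summit was 325252 bp away, 312 bp from a TSS of spoon.

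**Figure D2:**
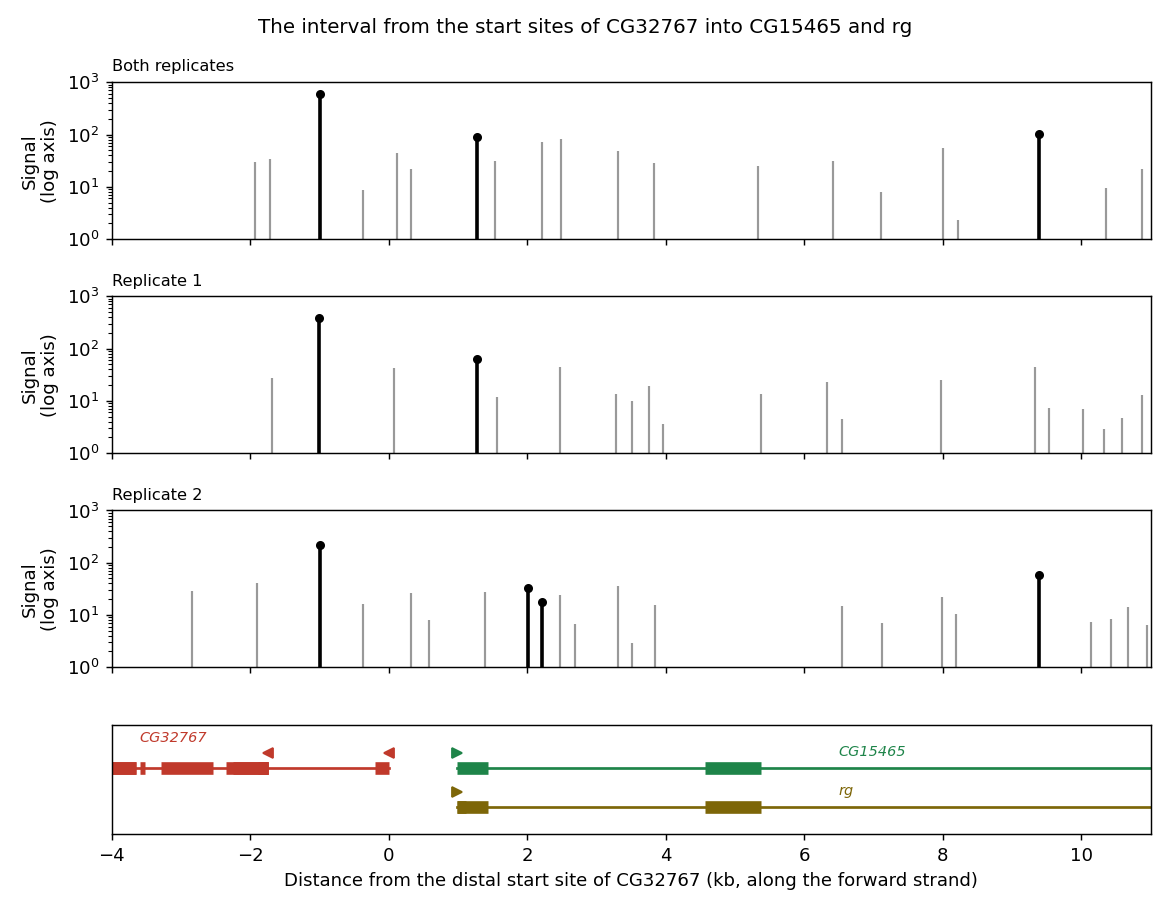
Peak signal (log axis) from 4 kb inside CG32767 to 11 kb past its distal start site, in the lists of both replicates, replicate 1 and replicate 2, with candidates in grey and thresholded peaks in black over the exons and start sites (arrowheads). The peak of CG32767 is black in all 3 panels, the first-exon peak of CG15465 and rg in the combined list and replicate 1, and the intronic peak at the right in the combined list and replicate 2.

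The start sites of CG32767 themselves had candidates that missed the threshold. The thresholded lists keep scores of at least 830. The score is a scaled irreproducible discovery rate (IDR), and a higher score means a lower rate. At the proximal TSS, from which the transcripts CG32767-RD to CG32767-RH start, the ranked list behind the conservative one had a candidate 27 bp upstream with a signal of 34.4 and a score of 807. The strongest candidate within 500 bp of it was 27.5 in replicate 1, 60 bp upstream, and 40.9 in replicate 2, 153 bp downstream. At the distal TSS of CG32767-RC the candidate was 117 bp upstream, in the 990 bases shared with CG15465, with a signal of 45.3 and a score of 754. The strongest candidate within 500 bp was 43.1 in replicate 1, 78 bp upstream, and 25.8 in replicate 2, 324 bp upstream. The replicate candidates have different summits, so their signals are not compared between replicates. The combined candidates at both start sites were far below the 601.5 of the intron between them. Candidate density over the CG32767 span, set against the X, depended on the list. The ranked list behind the conservative one had 2.91 candidates per 10 kb of the span against 9.64 per 10 kb of the X, and the longer ranked list 5.09 against 9.97. Replicate 1 had 1.455 against 6.38, and replicate 2 had 7.28 against 6.003. In the order given, these densities rest on only 4, 7, 2 and 10 candidates in the 13.7 kb of the span.

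The 2 replicates gave no estimate of error for a test, so their ratio is set beside that of the whole list. The log2 ratio of replicate 1 to replicate 2 was 0.83 at CG32767, 0.97 upstream of ovo, 1.16 at the first exon of CG15465 and -0.38 in its intron. Over the 3488 conservative peaks with a value in both replicates the median was 0.22, with quartiles of -0.22 and 0.62, and 63.2% were higher in replicate 1. The first 3 ratios were above the upper quartile, and the ratio of the first-exon peak was higher than that of 95.6% of the list. However, the replicate 2 value of the first-exon peak came from a candidate with its summit 114 bp away and a score of 58. The 2 values of that peak may therefore not describe the same site. The intronic ratio was below the lower quartile. The signals of the 2 libraries add up to about the combined value, 607.3 against 601.5 at CG32767 and 101.2 against 102.1 in the intron.

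**Figure D3:**
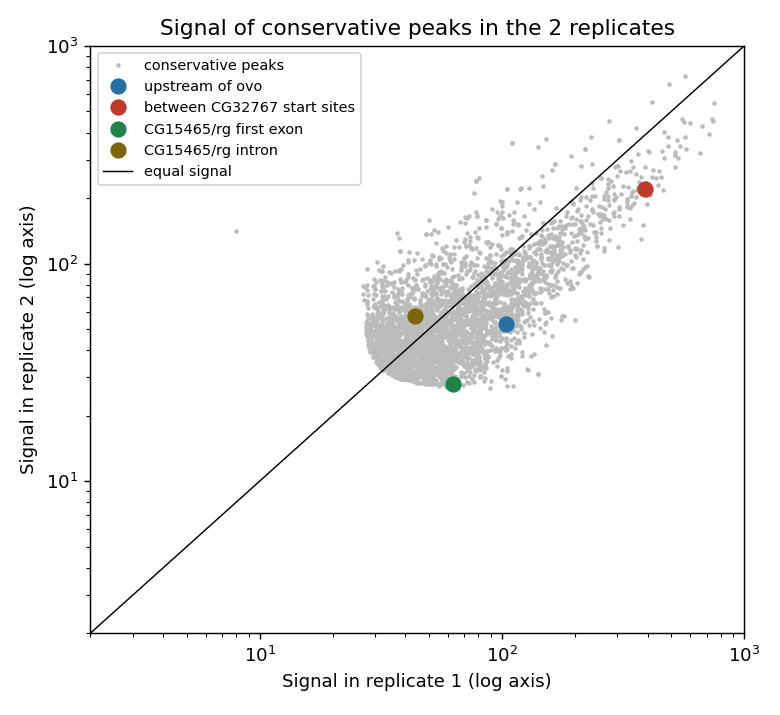
Signal of each conservative peak in replicate 1 (x, log axis) and replicate 2 (y, log axis), taken from the strongest overlapping candidate of each replicate's ranked list, with the line of equal signal. The CG32767 peak (388.2 and 219.1), the peak upstream of ovo (103.7 and 52.9) and the first-exon peak (63.0 and 28.1) lie below the line, and the intronic peak (43.9 and 57.3) lies above it.

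A summit within reach of a gene was common, and the strength at CG32767 was less so. In the conservative list 5433 of 13945 protein-coding genes (39.0%) had a summit in their span or within 5 kb, and so did CG32767 (2 summits), ovo (1) and CG15465 (3). The share was 45.3% with the longer list, 34.9% with the list of replicate 1 and 30.4% with that of replicate 2, and all 3 genes had a summit in each. Among the 1167 genes with spans of 10 to 25 kb, the size of CG32767 and ovo, it was 54.6%, and among the 83 with spans of at least 100 kb, like CG15465, it was 59.0%. With spans alone it was 10.8%, and CG32767 and CG15465 had a summit while ovo had none. In all, 854 genes (6.12%) had at least 3 summits as CG15465 did, 27 of them among the 83 long genes. A stronger peak than that of CG32767 was within reach of 166 protein-coding genes, and a stronger one than that of ovo within reach of 2256. The windows of neighbouring genes overlap, so 1 peak can count for several genes, as the 601.5 peak counts for both CG32767 and CG15465.

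**Figure D4:**
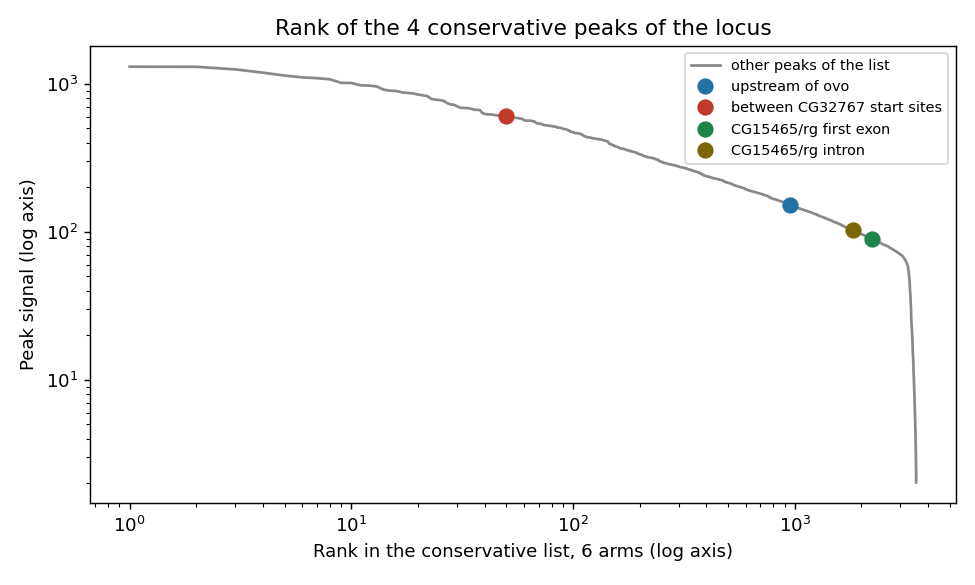
Signal of the conservative peaks on the 6 arms (y, log axis) against their rank (x, log axis), with the 4 peaks of the locus as points. The CG32767 peak stands 50th with 601.5, and the other 3, from 152.6 to 89.3, stand along the middle of the list.

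The peak in CG32767 had a layered sequence. Its first 103 bases were 43.7% A and T, the next 45, which RefSeq masks in lower case, were 84.4%, and the last 124 were 45.2%. The summit, at base 153 of the peak, was just past this core. In the 101 bases around summits, A and T made up 72.3% at CG32767, 78.2% upstream of ovo, 65.3% at the first exon of CG15465 and 68.3% in its intron, against a median of 65.3% over the conservative list. In 301 bases the CG32767 window held 52.2%, and 15.15% of the list held less, while the other 3 windows held 62.1 to 67.4% against a median of 61.1%.

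The word GCACAGTGG stood in the CG32767 peak as an inverted pair around the summit. The forward copy ended 62 bp before the summit, the reverse copy began 63 bp after it, and 124 bases lay between them. The other 3 windows of the locus had no copy in 301 bases. The word was chosen after it was seen in this peak, so its counts elsewhere describe the list and are not a test. It occurred in 166 of the 3527 conservative 301-base windows outside the locus (4.71%), and over the full list in 1.13% and 0.850% of equal windows centred 500 bp to the left and right. Of 197 matches outside the locus, at 195 positions, 179 (90.9%) pointed towards the summit, 91 forward to its left and 88 reverse to its right. In 27 other peaks copies stood on both strands, all of them facing inward and 25 around the summit, with 51 to 274 bases between them and a median of 160. Of these 28 peaks the one in CG32767 had the highest signal, followed by one of 594.9.

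**Figure D5:**
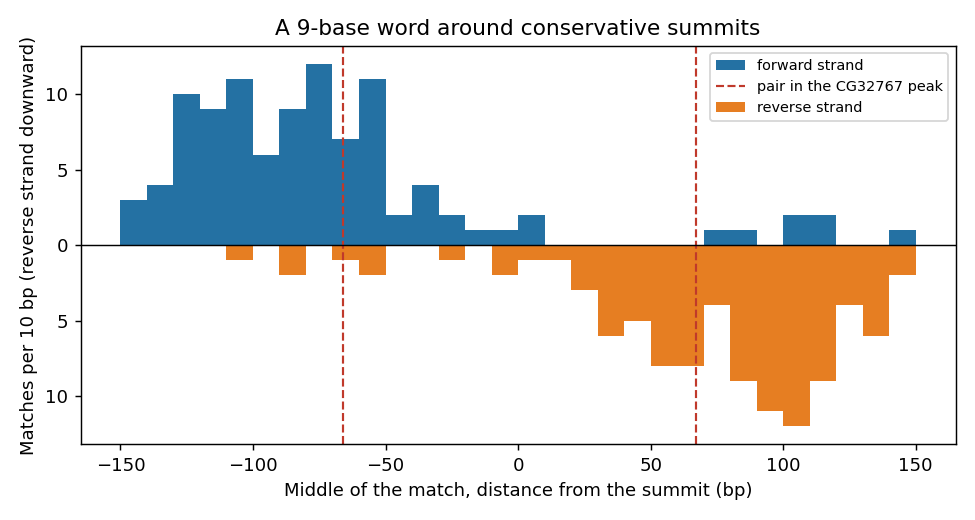
Number of matches to the 9-base word per 10 bp against their distance from the summit in bp, over the 301-base windows of the conservative list, with forward matches drawn upward and reverse matches downward. Forward matches lie mostly to the left of the summit (91 outside the locus) and reverse ones mostly to the right (88), and the dashed lines mark the pair in the CG32767 peak.

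Of 13 motifs searched on both strands in 101 bases, few were in the windows of the locus. The GATA motif (GATAA) was in the CG32767 window and in 21.4% of the list. The E-box (CANNTG) was in both windows of CG15465 and in 34.7% of the list, a run of A (AAAAAA) in the ovo and first-exon windows and in 26.2%, and TATAAA in the intronic window and in 19.3%. No window of the locus held GAGAG (13.0% of the list), CGATA (12.3%), ACACAC (10.9%), CAGCTG (3.77%, a case of the E-box), the Ovo-type AACNGTT (3.002%) or CCGTTA (2.24%), or CAGGTA (2.24%). The longer TATCGATA (1.42%, which contains CGATA) and GGTCACACT (0.396%) were likewise not found. Outside its 101-base window the CG32767 peak did hold GAGAG, as its printed sequence shows. The motif letters are a description, and their absence from 101 bases says nothing about the factors that read them.

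Genes linked to ovo, in lists chosen by role, were counted in the same way. Of 28 symbols in 3 lists, 27 were matched, in 24 distinct spans, and 10 of these spans (41.7%) had a conservative summit within reach, against the 39.0% of all protein-coding genes. Among 12 genes of the epidermis downstream of the somatic Ovo protein, 3 had one. These were sn, which encodes the actin bundler Fascin (144.6 combined, with 85.1 and 60.9 in replicates 1 and 2), WASp, an activator of actin branching (106.7, with 31.9 and 92.5), and mwh, which limits hair number (84.7, with 54.9 and 33.1). WASp had 0 thresholded peaks in the list of replicate 1, and mwh had 0 in that of replicate 2. The cuticle and hair genes sha, f, m, y, dyl, tyn, nyo, neo and zye had none in the conservative list. Of these, nyo had 1 in the longer list and 1 in the list of replicate 1.

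Among regulators of ovo expression or processing, 4 of 6 spans had a conservative summit, beside 39.0% of all protein-coding genes and 54.6% of those with spans of 10 to 25 kb. The small peptide gene known as polished rice or tarsal-less is annotated as tal-1A, tal-2A, tal-3A and tal-AA in 1 span. It had its summit of 106.2 outside that span, 4917 bp from its TSS. Ubr3, a ubiquitin ligase that acts on the somatic Ovo protein, had 118.7, with 69.2 in replicate 1 and 50.4 in replicate 2. EcR, the ecdysone receptor gene, had 117.8, with 58.6 and 57.7 in that order, in a span longer than those of the other regulators. The gene rho, for a protease of EGFR signalling, had 72.5, with 35.7 in replicate 1 and 35.3 in replicate 2, and 0 thresholded peaks in the list of either replicate. The signalling genes wg and Ser had no summit in any thresholded list. Of 6 germline genes, 3 had a summit. The sex determination gene Sxl led with 189.8 (120.2 and 71.2 in replicates 1 and 2), at a summit outside its span. Another of its 3 conservative summits was 418 bp from a TSS of Sxl. Next came otu, a gene of the ovarian germline, with 132.3 (40.8 and 86.8), at a summit outside the otu span. It was followed by fl(2)d, which acts in Sxl splicing, with 124.5 (58.3 and 68.1). The genes snf, stil and vir had no conservative summit. Each of these signals was below that of the CG32767 peak, and all but that of Sxl were below that of the peak upstream of ovo.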

How the data were processed

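The authors deposited 8 peak lists in dm6, per the labels, 4 thresholded and 4 ranked, for each of 2 replicates and in 2 versions for both. The sources used here do not name an aligner or a peak caller, nor say whether the possible control was used. The deposited signal is in the peak caller's units and ranks peaks within 1 list. The IDR is an estimate of how poorly ranks repeat between peak sets. The deposited score is a scaled IDR, where a higher score means a lower IDR, and was at least 830 in each thresholded list. A further deposited column, a −log10 IDR, gave no printed value. Depth is unknown, as the lists give no counts.

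Gene models were those of Ensembl 115 (BDGP6.54). Sequence was read from the RefSeq dm6 assembly, and 0 peaks ran past a chromosome end. A peak belongs to a gene by its summit, and positions are 1-based. A replicate's value is the strongest candidate of its ranked list that overlaps the peak by at least 1 bp. Motifs were searched within 50 bp of summits and the 9-base word within 150 bp. Nothing was tested, as 1 group of 2 replicates allows no test. The assignment of summits, replicate values and motif matches was tested on simulated data. The rule for names took the genes of the locus, its thresholded peaks, their neighbours and the ovo-linked genes with a summit. Genes without a summit are named for completeness, and Ptp4E and spoon were named after their values were seen. Members, lists and motifs were chosen with earlier results of these data known. Python 3.11.15, pandas 2.3.3, numpy 2.4.6, pysam 0.24.0 and matplotlib 3.10.9 were used.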

Additional observations from a re-analysis of the deposited data

How the results depend on the processing

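Of 69 values recomputed under another setting, 47 were labelled as about the same and 22 as moved. The values are counts, signals, ranks and shares, so none of them could change sign. The 47 include counts that differed by 1 summit, such as 2 against 3 at CG32767 and 3 against 4 at CG15465 without replicate 1. They also include signals of the same peak read from another list. The longer list gave CG32767 4 summits and CG15465 5, and the upper 50% of the conservative list by signal gave each of them 1. Without flanks CG32767 had 1 and ovo 0. Without replicate 1 CG32767 had 3 summits and CG15465 4, and without replicate 2 each had 2. Apart from the peak between its start sites, every summit counted for CG32767 lay within CG15465 and rg. The share of protein-coding genes with a summit ranged from 30.4% to 34.9% without either replicate, and was 45.3% with the longer list, 27.2% with flanks of 2 kb, 10.8% without flanks and 26.2% with the upper 50%. Against the ranked candidates of replicates 1 and 2, the CG32767 peak, also the strongest of CG15465, was higher than 99.95% and 99.89% (98.6% of the conservative list), and the ovo peak than 99.2% and 97.8%, or 71.2% of conservative X peaks. These ranks refer to longer or shorter lists. Replicate signals kept their values with a required overlap of 50%, and with summits within 100 bp, where the first-exon peak had no value in replicate 2. In 201-base windows GAGAG was in 1 window of the locus and GATAA in 2, and the 9-base word was in 2.92% of windows, a setting chosen after seeing the data. No paired analysis was possible because there was 1 group. The unknown depth limits how far weak candidates can be read.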
